A study of Mus musculus with 10 samples.

Results

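The nuclear genes for the respiratory chain and the ATP synthase were examined as 1 group in mouse thymus RNA. Members were the protein-coding genes of the count table whose mouse symbol begins with Nduf, Uqcr or Atp5, begins with Cox4 to Cox8, or is Sdha, Sdhb, Sdhc or Sdhd. The rule uses names and no measured value. It gave 93 genes of 35375 features, which are 46 of complex I, 4 of complex II, 8 of complex III, 18 of complex IV and 17 of complex V. The names also take in 8 assembly factors of complex I (Ndufaf genes), which help to build the complex without staying in it, and Atp5s, a coupling factor counted apart from the structural subunits. Ndufa4 is kept under complex I by its name, although its protein has since been placed in complex IV.

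The thymuses came from C57BL/6J mice, 3 days after birth, and total RNA was depleted of ribosomal RNA before stranded sequencing. Usp7, which encodes a deubiquitinating enzyme also called HAUSP, was deleted within the blood-forming lineages on both alleles (homozygous KO, n = 3 animals) or on 1 allele (heterozygous KO, n = 3). The wild-type group had n = 4, of which the series describes 2 with cre recombinase and 2 without, with no statement of which animal is which. The titles of wild type replicates 1 and 2 hold 2 "wt" words and those of replicates 3 and 4 hold 1, and in the count table the columns of replicates 3 and 4 carry a further "het" word that their titles lack. The meaning of these words is not given, and all 4 were kept as wild type by their genotype labels. Cre cannot therefore be told apart from the deletion in these comparisons. The cre driver is not named in the labels, and whole thymus also holds stroma outside the lineages in which Usp7 was deleted. Nothing in the labels says that the animals of a group came from separate litters, so the p-values measure the spread between these libraries.

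The respiratory chain lies in the inner mitochondrial membrane. Complexes I and II pass electrons from NADH and succinate to ubiquinone, complex III passes them on to cytochrome c, and complex IV passes them to oxygen. Complexes I, III and IV pump protons, and complex V, the ATP synthase, uses the returning protons to make ATP. Most subunits are encoded in the nucleus and imported, while a small core set is encoded by mitochondrial DNA, and complex II is made of nuclear products alone. In the thymus, dividing precursors of T cells draw on both glycolysis and oxidative phosphorylation.

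The library totals ran from 39.8 to 122.4 M counts, with the 4 wild types at 39.8 to 86.4 M, so that members at low levels were less precisely measured there. Usp7 was at 303 to 422 counts per M library counts (CPM) in homozygous KO, 472 to 516 CPM in heterozygous KO and 589 to 677 CPM in wild type, in the order of the labels. Its log2 fold change against wild type was -0.745 in homozygous KO (adjusted p from edgeR 0.000525). In heterozygous KO it was -0.336 and not called (adjusted p from edgeR 0.6085). Usp7 transcript was thus still counted in every homozygous KO library. Within wild type it was 677 and 670 CPM in replicates 1 and 2 and 594 and 589 CPM in replicates 3 and 4, whose columns carry the "het" word. The thymocyte genes Cd4, Cd8a and Rag1 averaged 662, 1260 and 6300 CPM in wild type, so the defining markers of thymus were present. Sex is not in the labels. Xist, a transcript of the inactive X chromosome, was at 1913 to 2459 CPM in 1 homozygous KO library and 3 wild-type libraries and at no more than 1.13 CPM in the other 6, including all 3 heterozygous KO libraries. Ddx3y, a gene of the Y chromosome, was at 70.45 to 101.7 CPM in those 6 and at no more than 0.0333 CPM elsewhere. By these transcripts the 6 read as male and the rest as female. Sex was thus unbalanced between the groups, most of all between heterozygous KO and wild type, and cannot be fully told apart from genotype. The animals carry the numbers 44 to 51 or 56 to 63, a division that crosses the groups, and values within each range of numbers are given where they matter.

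Compared with wild type, transcripts of 39 of the 91 members tested rose in homozygous KO and 0 fell at an adjusted p under 0.05 in edgeR's quasi-likelihood test. Over all 19511 features tested, 12.5% were called higher and 13.2% lower. The changes were small. The median log2 fold change of members was 0.20, against -0.01 over all features, and 85 of the 91 were above 0. Apart from Cox6b2, the called members lay between 0.17 and 0.45 on the log2 scale. In 56 members every homozygous KO library was above every wild-type library, and in 1 member every library was below. The same complete separation held for 16.3% of all features upward and 16.4% downward. Since whole tissue was sequenced, more cells of a type and more RNA per cell cannot be told apart here.

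**Figure D1:**
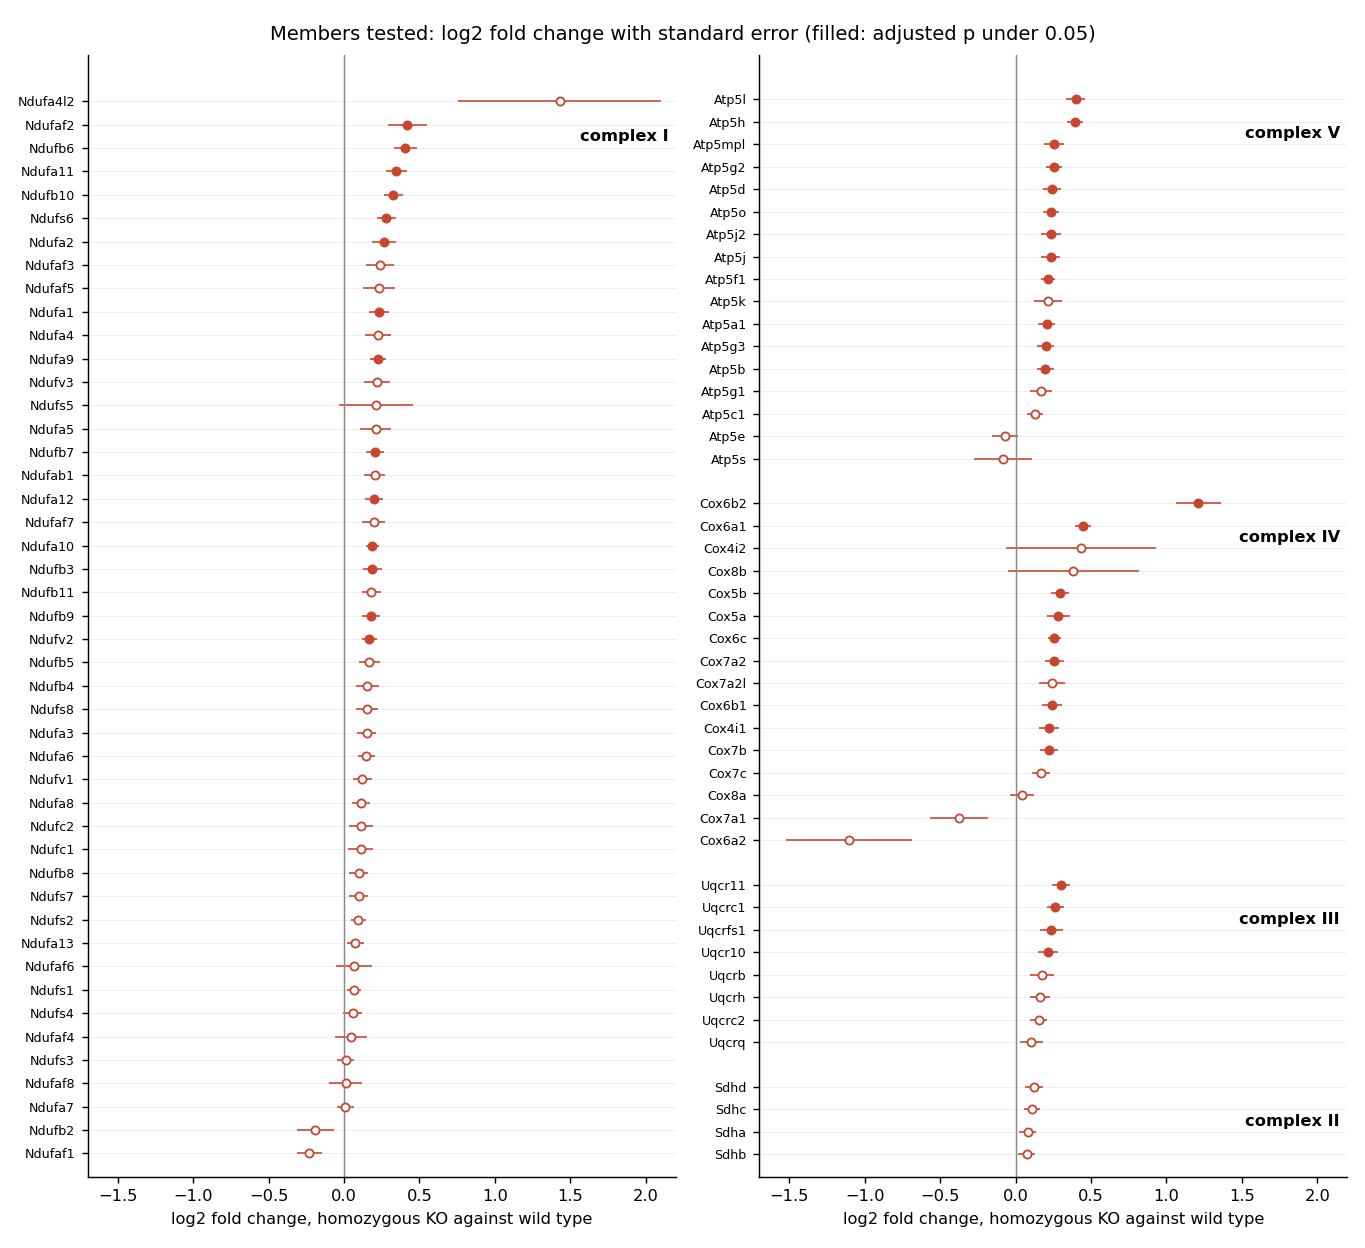
Change of the 91 members tested, as log2 of homozygous KO over wild type, by complex, with bars of 1 standard error and filled points for an adjusted p under 0.05. Filled points are all to the right of 0, and complex II has none.

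The scale of this rise depended on how the libraries were made comparable. TMM scaling, which corrects for a few strongly changed genes, moved the homozygous KO libraries against the others, with factors of 0.94 to 0.98 against 1.01 to 1.03. With library totals alone, 14 members were called, 13 higher and 1 lower, the median of members was 0.10, and the median of all features moved to -0.11. The distance of the members' median from that of all features was 0.214 with either scaling. This follows from the method, since a change of scaling moves every log2 fold change by about the same amount. It is therefore no check of the rise. As a plain share of all counts, members took 0.793% to 0.804% in homozygous KO, 0.759% to 0.819% in heterozygous KO and 0.727% to 0.776% in wild type. Every homozygous KO library was thus above every wild-type library on that scale too, by 7.20% of the mean. Heterozygous KO was 7.02% above wild type on that scale. The knockouts overlapped there, with means of 0.799% in homozygous KO and 0.798% in heterozygous KO.

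The count of calls also rested on particular libraries. It was 22 without homozygous KO replicate 1 and 25 without replicate 2, and it was 11 when the 2 wild types with 1 "wt" word in the title were the sole controls and 27 with the other 2. With the Xist level as a covariate, 26 members were called, of which 25 were among the 39. Over the 22 processing alternatives, 11 of the 39 were called in every case: Ndufb6, Ndufb10, Ndufs6, Uqcr11, Cox5b, Cox6a1, Cox6b2, Cox6c, Atp5g2, Atp5h and Atp5l. Within the animals numbered 44 to 51, the median difference of members was 0.251 (1 homozygous KO library against 3 wild types), and within those numbered 56 to 63 it was 0.120 (2 against 1).

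**Figure D2:**
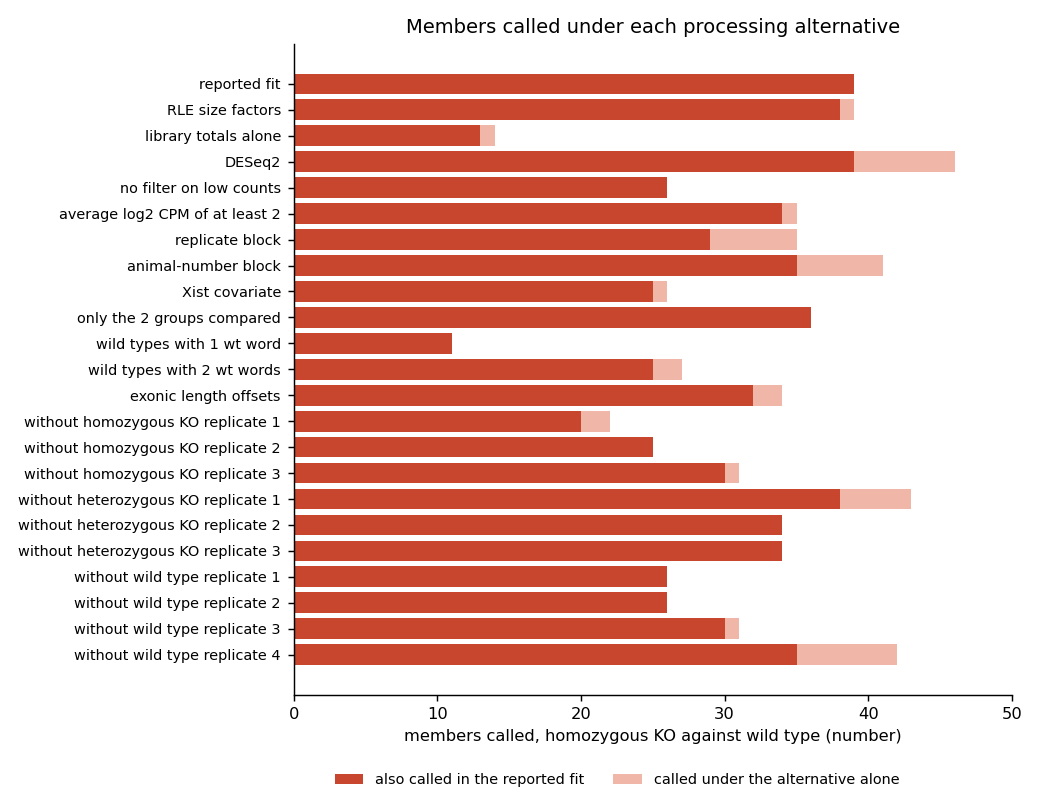
Number of members called in homozygous KO versus wild type (horizontal axis) in the reported fit and under each of 22 alternatives, with the dark part of each bar shared with the reported fit. The bars run from 11 to 46 members.

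Promoters of 8 called members are shown because genes of this group are known to share binding sites for NRF1, Ets-family factors (GABP) and YY1. Promoter windows of 300 bases, from 250 before the start of transcription to 50 after it, were taken from RefSeq (GRCm38.p6) and matched by symbol. They were found for 74 of the 93 members, in 79 windows. The letters searched, on both strands, were GCNTGCGC for NRF1, CCGGAAGT for Ets factors and AAGATGGCG for YY1. NRF1-like letters stood in 32.9% of the members' windows and in 9.95% of all 32851 windows of the table. Ets-like letters stood in 6.33% and 3.89%, and YY1-like letters in 10.1% and 1.4%. The members' windows were also richer in G and C, with a median of 57.7% against 52.7%. Among members called higher in homozygous KO, 41.2% of 34 windows held at least 1 of the 3 motifs, and among members not called 46.7% of 45 windows did.

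The 150 bases just before the start are printed 5′ to 3′ on the strand of the gene, with motif letters in capitals. The genes are Cox6b2, 6 members with large changes in complexes I, III, IV and V, and Cox6b1 as the counterpart of Cox6b2, chosen after their values were seen. All 8 lie on the minus strand. Cox6b2 is at chr7:4753095-4753244 and Cox6b1, its broadly expressed counterpart, at chr7:30626115-30626264. Cox6a1 is at chr5:115348959-115349108, Uqcr11 at chr10:80406822-80406971 and Atp5h at chr11:115419920-115420069. Ndufb6 is at chr4:40279422-40279571, Ndufb10 at chr17:24724424-24724573 and Atp5l at chr9:44920743-44920892.
Cox6b2: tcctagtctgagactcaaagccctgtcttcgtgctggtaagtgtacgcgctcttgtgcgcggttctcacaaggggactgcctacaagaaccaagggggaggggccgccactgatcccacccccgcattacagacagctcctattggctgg
Cox6b1: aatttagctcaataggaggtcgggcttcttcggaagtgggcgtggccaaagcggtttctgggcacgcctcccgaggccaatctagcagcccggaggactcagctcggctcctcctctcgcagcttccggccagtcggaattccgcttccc
Cox6a1: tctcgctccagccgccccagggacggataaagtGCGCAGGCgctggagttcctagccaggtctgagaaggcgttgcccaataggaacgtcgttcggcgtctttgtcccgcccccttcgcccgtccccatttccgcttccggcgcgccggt
Uqcr11: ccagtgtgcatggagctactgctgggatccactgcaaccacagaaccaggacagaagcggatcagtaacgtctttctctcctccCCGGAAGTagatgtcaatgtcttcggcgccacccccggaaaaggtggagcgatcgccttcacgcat
Atp5h: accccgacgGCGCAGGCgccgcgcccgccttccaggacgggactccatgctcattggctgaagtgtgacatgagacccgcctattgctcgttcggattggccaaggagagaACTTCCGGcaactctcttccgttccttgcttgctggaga
Ndufb6: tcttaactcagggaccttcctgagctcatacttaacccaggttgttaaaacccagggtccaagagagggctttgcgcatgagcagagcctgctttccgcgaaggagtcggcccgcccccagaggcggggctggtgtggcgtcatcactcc
Ndufb10: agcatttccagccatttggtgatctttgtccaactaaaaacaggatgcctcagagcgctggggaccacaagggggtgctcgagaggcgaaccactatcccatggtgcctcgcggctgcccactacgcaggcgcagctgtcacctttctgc
Atp5l: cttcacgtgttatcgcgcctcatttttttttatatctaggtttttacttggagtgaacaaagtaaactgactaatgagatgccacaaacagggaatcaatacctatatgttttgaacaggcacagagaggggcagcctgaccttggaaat
The capitals mark NRF1-like letters in Cox6a1, Ets-like letters in Uqcr11 and, in Atp5h, first NRF1-like and then Ets-like letters. No motif overlapped another in the printed stretches, and those of Cox6b2, Cox6b1, Ndufb6, Ndufb10 and Atp5l held none. Outside them, NRF1-like matches cross the start of transcription in Uqcr11 and Ndufb10, and lie further upstream in Atp5l and, as 2 overlapping matches on opposite strands, in Cox6a1. The whole windows of Cox6b2, Cox6b1 and Ndufb6 held none of the 3 motifs. A match of letters is a description of the sequence and no measurement of binding.

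The level of each complex was summed over its members as reads per kilobase of transcript per M reads (RPKM). Complex IV was 18.7% above wild type in homozygous KO, complex V 16.8%, complex III 14.5%, complex I 12.3% and complex II 6.48%. Complex V was at 3416, 3301 and 3208 RPKM in homozygous KO, 2910, 3198 and 3219 RPKM in heterozygous KO, and 2770, 2792, 2789 and 2977 in wild type. Complex IV was at 1939, 1898 and 1838 RPKM in homozygous KO, 1610, 1797 and 1769 RPKM in heterozygous KO, and 1548, 1600, 1555 and 1671 in wild type. For both complexes the homozygous KO and wild-type libraries did not overlap, and heterozygous KO replicate 1 lay among the wild types. Complex II was at 275, 254 and 243 RPKM in homozygous KO and 238, 249, 240 and 239 in wild type, and here the groups overlapped.

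**Figure D3:**
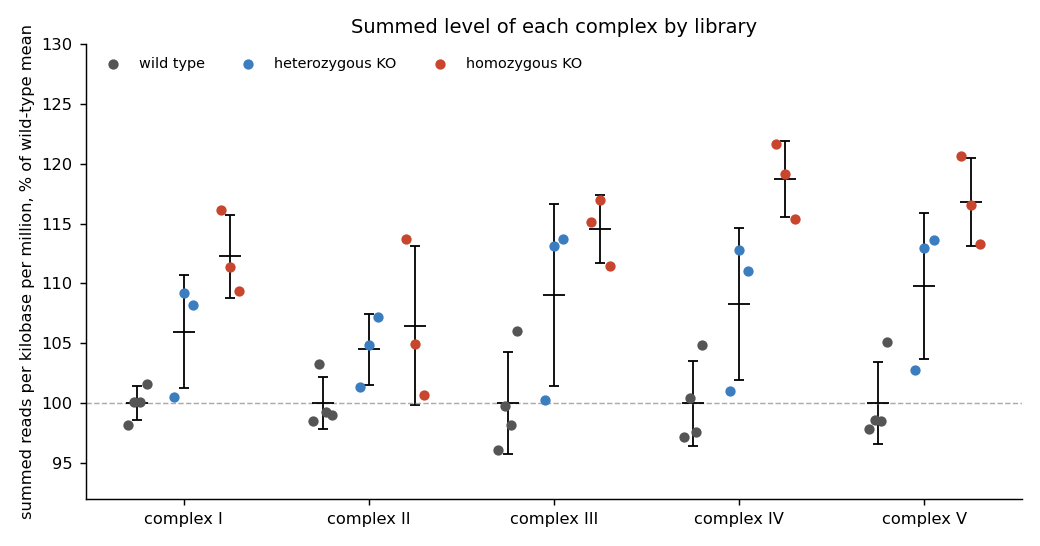
Summed RPKM of each complex in every library as a percentage of the wild-type mean (vertical axis, starting above 0), with points for libraries and bars for the mean and SD. Homozygous KO libraries lie above all wild types in complexes I, III, IV and V, and overlap them in complex II.

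Of the 46 complex I members, 14 rose and 0 fell, beside 12.5% of all features called higher, with a median log2 fold change of 0.18. Ndufb6, an accessory subunit of the membrane arm, was at 21.8, 22.5 and 20.5 CPM in homozygous KO, 18.2, 19.3 and 20.4 CPM in heterozygous KO, and 15.2, 15.8, 16.5 and 17.6 CPM in wild type. Every homozygous KO value was above every wild-type value, a log2 fold change of 0.41 (SE 0.08, adjusted p from edgeR 0.00286). Ndufb6 shares 31.6% of its 50-base stretches with 1 other gene, Smim27, whose exons overlap 39.0% of its exonic bases. The counts of Ndufb6 may therefore include or lack reads from Smim27. Ndufa11, another membrane-arm subunit, was at 48.9, 44.9 and 46.4 CPM in homozygous KO, against 34.0, 36.3, 36.7 and 39.8 CPM in wild type (log2 fold change 0.35, SE 0.07, adjusted p from edgeR 0.00398). Ndufb10, also of the membrane arm and free of shared stretches, was at 59.4, 63.7 and 57.9 CPM against 47.9, 50.4, 47.02 and 47.3 CPM (0.33, SE 0.06, adjusted p from edgeR 0.00364). Ndufs6, a zinc-binding accessory subunit near the NADH site, rose by 0.28 (SE 0.06, adjusted p from edgeR 0.00698). Ndufb10 and Ndufs6 were named after their values were seen.

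The core of complex I carries the electrons, and its subunits were set beside the accessory ones in a grouping made after the values were seen, with no test of the difference. Of the 7 nuclear core subunits 1 was called, and of the 29 accessory subunits 12 were, beside 12.5% of all features called higher. The core median was 0.10 and the accessory median 0.19. Ndufs1, the largest iron-sulfur subunit, was at 91.99, 94.8 and 88.8 CPM in homozygous KO, 83.3, 86.5 and 87.3 CPM in heterozygous KO, and 88.8, 85.0, 89.8 and 87.4 CPM in wild type. These values overlap, with a log2 fold change of 0.07 (SE 0.05, adjusted p from edgeR 0.328). Ndufv1, which binds NADH and the flavin, was at 92.2, 93.9 and 90.8 CPM in homozygous KO and 76.8, 87.8, 85.3 and 89.2 CPM in wild type (0.12, SE 0.06, adjusted p from edgeR 0.173). The core subunit called was Ndufv2, the iron-sulfur partner of Ndufv1, with 0.17 (SE 0.05, adjusted p from edgeR 0.0304). Its call was lost under 13 of the 22 alternatives.

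Among the 8 assembly factors of complex I, 1 was called, beside 12.5% of all features called higher. Ndufaf2 was at 7.53, 6.58 and 7.34 CPM in homozygous KO, 5.50, 6.46 and 7.57 CPM in heterozygous KO, and 5.92, 5.39, 4.98 and 5.10 CPM in wild type (0.42, SE 0.13, adjusted p from edgeR 0.0368). This call was lost under 13 of 22 alternatives, and 64.1% of the 50-base stretches of Ndufaf2 also occur in transcripts of other genes. Exons of B230220B15Rik overlap 65.65% of the exonic bases of Ndufaf2. Ndufaf1 was the lowest complex I member, at 17.9, 15.6 and 14.6 CPM against 19.6, 18.8, 19.3 and 17.7 CPM, and it did not pass the test (-0.23, SE 0.08, adjusted p from edgeR 0.0625). It was called lower under 6 alternatives. Ndufb2 had a log2 fold change of -0.19 (adjusted p from edgeR 0.287). Ndufs5 stood out by its spread within groups, at 30.7, 16.9 and 16.9 CPM in homozygous KO, 21.5, 23.9 and 15.0 CPM in heterozygous KO and 20.6, 19.7, 21.2 and 12.8 CPM in wild type. Its fold change of 0.21 (adjusted p from edgeR 0.566) turned to -0.14 without homozygous KO replicate 1. Ndufs5 shares 21.7% of its 50-base stretches with 1 other gene, BC002163, so its counts may include or lack reads of that gene. Ndufaf1, Ndufb2, Ndufs5 and Ndufv2 were also named after their values were seen.

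Complex II, which is also the succinate dehydrogenase of the citric acid cycle, had 0 of 4 members called in edgeR, and 0 with an unadjusted p under 0.05. Sdha, the flavoprotein that oxidizes succinate, was at 263, 235 and 231 CPM in homozygous KO, 239, 233 and 235 CPM in heterozygous KO, and 232, 242, 231 and 214 CPM in wild type. The highest value was homozygous KO replicate 1 and the other 2 fell within the wild-type range (0.08, SE 0.06, adjusted p from edgeR 0.353). Sdhb, the iron-sulfur subunit, was at 100.2, 90.5 and 87.9 CPM in homozygous KO and 87.1, 90.8, 88.8 and 86.6 CPM in wild type (0.07, SE 0.06, adjusted p from edgeR 0.393). The membrane anchors Sdhc and Sdhd had log2 fold changes of 0.11 and 0.12. With library totals alone Sdha and Sdhb were at -0.02 each. DESeq2 called 0 of the 4 as well.

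Complex III had 4 of 8 members called, all higher, beside 12.5% of all features called higher, with a median of 0.19. Uqcr11, a small membrane subunit, was at 45.6, 47.3 and 46.4 CPM in homozygous KO, 39.6, 43.99 and 43.2 CPM in heterozygous KO, and 35.3, 38.0, 38.6 and 38.7 CPM in wild type. The 3 groups did not overlap (homozygous KO versus wild type 0.30, SE 0.06, adjusted p from edgeR 0.00398). Uqcrc1, a core protein on the matrix side, was at 183, 196 and 186 CPM in homozygous KO, 152, 170 and 169 CPM in heterozygous KO, and 146, 159, 158 and 166 CPM in wild type (0.26, SE 0.06, adjusted p from edgeR 0.00688). Uqcrfs1, the Rieske iron-sulfur protein that takes electrons from ubiquinol, was at 120, 126 and 121 CPM in homozygous KO and 99.2, 106, 93.7 and 116 CPM in wild type (0.24, SE 0.08, adjusted p from edgeR 0.0427). The call of Uqcrfs1 was lost under 13 of 22 alternatives.

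Complex IV held the largest change of any called member. Cox6b2, a form of subunit 6B known mainly from testis, was at 12.9, 13.4 and 10.2 CPM in homozygous KO, 4.96, 5.17 and 5.25 CPM in heterozygous KO, and 5.60, 6.23, 5.22 and 4.04 CPM in wild type. Homozygous KO was apart from the other 7 libraries, and heterozygous KO lay within the wild-type range. Its mean was 12.2 ± 1.7 CPM (SD, n = 3) against 5.27 ± 0.923 CPM (SD, n = 4), 2.32-fold higher by the fitted value (log2 fold change 1.21, SE 0.15, adjusted p from edgeR 0.000201). Cox6b1, the form used in most tissues, was at 120, 123 and 113 CPM in homozygous KO, 102, 117 and 117 CPM in heterozygous KO, and 92.8, 101, 101 and 107 CPM in wild type (0.24, SE 0.07, adjusted p from edgeR 0.0209). Measured per kilobase, Cox6b2 was 12.5%, 12.7% and 10.7% of the pair in the homozygous KO libraries, 5.76% ± 0.282 in heterozygous KO (SD, n = 3) and 6.55% ± 1.29 in wild type (SD, n = 4). The call of Cox6b2 held under all 22 alternatives, with log2 fold changes of 1.04 to 1.39. It was 1.17 within animals 44 to 51 and 1.51 within animals 56 to 63. No annotated exon of another gene overlaps it, and none of its 50-base stretches occurs in another gene's transcripts. Cox6b1 was named after its values were seen.

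Of the 11 genes counted as broadly expressed subunits of complex IV, 8 rose, beside 12.5% of all features called higher. Cox7a2l, named after its values were seen, is counted among the 11 by its symbol alone and was not called. Cox6a1, the broadly expressed form of subunit 6A, was at 123, 121.5 and 118 CPM in homozygous KO, 91.4, 103 and 101 CPM in heterozygous KO, and 86.8, 87.5, 89.2 and 91.4 CPM in wild type. Homozygous KO lay above both other groups (0.45, SE 0.05, adjusted p from edgeR 0.000121). Cox5b, a zinc-binding matrix subunit, was at 104, 104 and 101 CPM against 79.9, 86.3, 80.8 and 88.0 CPM (0.29, SE 0.06, adjusted p from edgeR 0.00384). Cox5a was at 36.3, 32.7 and 30.2 CPM against 27.1, 28.8, 26.9 and 26.0 CPM (0.28, SE 0.08, adjusted p from edgeR 0.0207). Cox4i1, the largest nuclear subunit, was at 236, 244 and 236 CPM in homozygous KO and 195, 207, 189 and 228 CPM in wild type (0.22, SE 0.07, adjusted p from edgeR 0.0357), and it lost its call under 12 of 22 alternatives. Cox6c rose by 0.26 (SE 0.05, adjusted p from edgeR 0.00187) and was named after its values were seen.

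**Figure D4:**
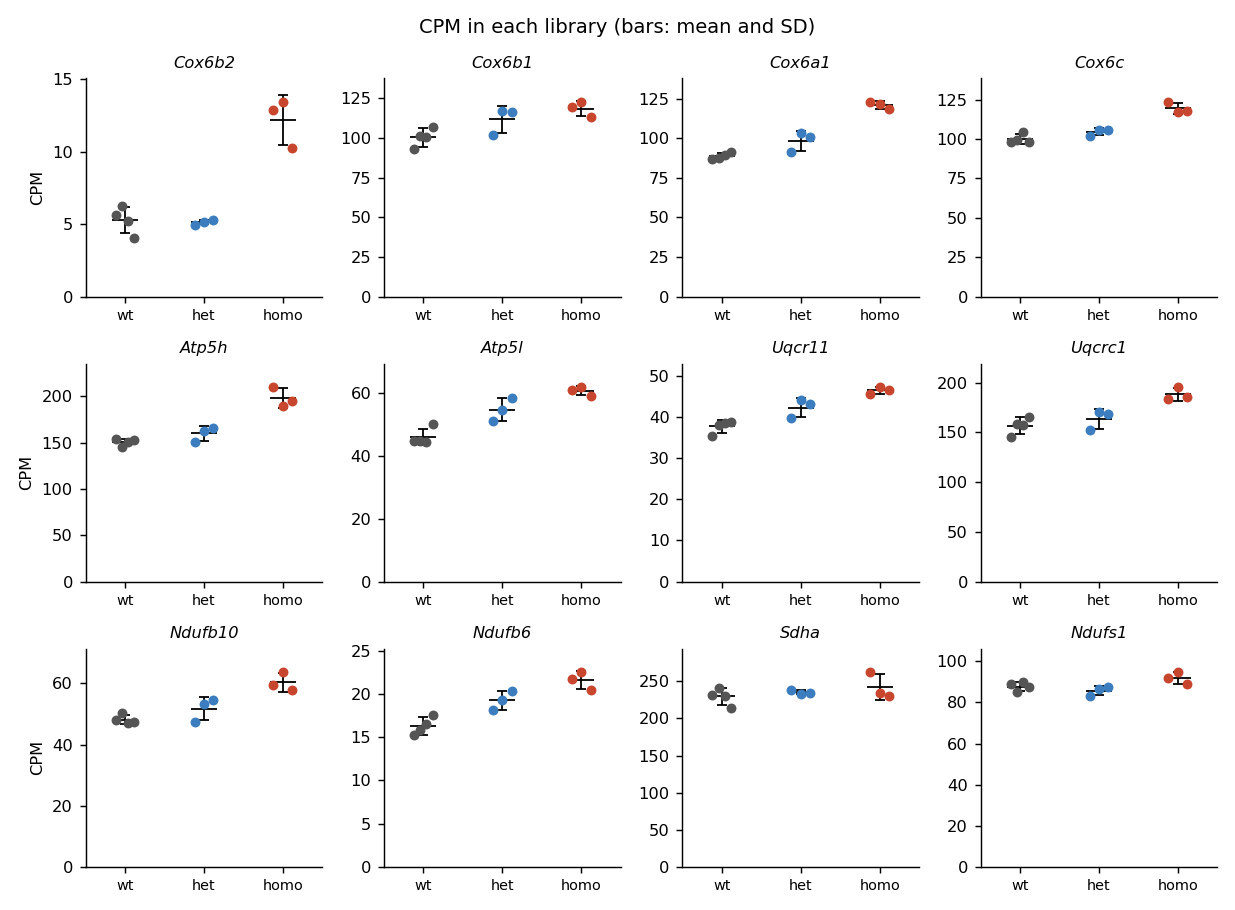
CPM of 12 members in each library (points) with the mean and SD (bars), by group, each axis starting at 0. Cox6b2 separates homozygous KO from the other 7 libraries, the next 9 members show smaller rises, and Sdha and Ndufs1 overlap between groups.

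The tissue-restricted forms of complex IV other than Cox6b2 were at low levels, with a highest value of 3.76 CPM. Cox6a2, the form of heart and skeletal muscle, was at 0.0955, 0.0782 and 0.0887 CPM in homozygous KO, 0.360, 0.398 and 0.251 CPM in heterozygous KO and 0.295, 0.144, 0.214 and 0.121 CPM in wild type. These are 6 to 38 counts per library. Every homozygous KO value was below every value of the other groups, and the test was not passed against wild type (-1.11, SE 0.42, adjusted p from edgeR 0.0760). Cox7a1, also of muscle, was at 1.26 to 1.75 CPM in homozygous KO and 1.69 to 2.28 CPM in wild type (-0.38, SE 0.19, adjusted p from edgeR 0.177). Cox4i2 had 1.04, 3.43 and 2.89 CPM against 1.52, 1.01, 0.889 and 3.76 CPM, and Cox8b stayed under 0.53 CPM in every library. Ndufa4l2, known as a hypoxia-induced relative of Ndufa4, was under 0.42 CPM throughout, with 0 counts in wild type 1. None of Cox4i2, Cox8b and Ndufa4l2 passed the test (adjusted p from edgeR 0.565, 0.559 and 0.145). The testis forms Cox7b2 and Cox8c had 0 counts in all 10 libraries, where 3 counts correspond to 0.0260 to 0.0737 CPM depending on depth. These were the 2 members not tested.

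Complex V had 12 of 17 members called, all higher, beside 12.5% of all features called higher, with a median of 0.21. The 4 genes of the peripheral stalk, which holds the catalytic head still, were all called. The grouping of complex V genes into parts of the enzyme was made after the values were seen. Atp5h, subunit d of that stalk, was at 209.9, 189 and 195 CPM in homozygous KO, 151, 163 and 166 CPM in heterozygous KO, and 153, 145, 151 and 153 CPM in wild type (0.39, SE 0.05, adjusted p from edgeR 0.000294). Atp5h shares 19.9% of its 50-base stretches with other genes. For the other genes of this stalk the share was 41.6% (Atp5o), 14.3% (Atp5f1) and 8.89% (Atp5j). Of the 4 small membrane subunits 3 were called. Atp5l, subunit g, was at 59.2 to 61.9 CPM over the 3 libraries of homozygous KO, 51.1, 54.7 and 58.4 CPM in heterozygous KO, and 44.7, 44.8, 44.6 and 50.02 CPM in wild type, with no overlap among the 3 groups (0.40, SE 0.06, adjusted p from edgeR 0.00111). Atp5mpl, a small proteolipid, was at 64.2, 61.8 and 57.6 CPM in homozygous KO, 55.7, 62.7 and 62.7 CPM in heterozygous KO and 49.99, 50.2, 49.7 and 54.9 CPM in wild type. The knockouts overlapped each other and both lay above wild type (homozygous KO 0.26, SE 0.07, adjusted p from edgeR 0.0150).

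The catalytic head and the central stalk together had 3 of 5 members called, beside 12.5% of all features called higher. Atp5b, the beta subunit that makes ATP, was the most abundant member per length, at 528 RPKM in wild type. It was at 1191, 1163 and 1129 CPM in homozygous KO, 1034, 1142 and 1141 CPM in heterozygous KO, and 974, 1012, 998 and 1066 CPM in wild type (0.20, SE 0.06, adjusted p from edgeR 0.0245). Atp5a1, the alpha subunit, was at 940, 957 and 913 CPM in homozygous KO, 826, 921 and 889 CPM in heterozygous KO, and 782, 806, 796 and 863 CPM in wild type (0.21, SE 0.06, adjusted p from edgeR 0.0198). Both calls were lost with library totals alone, with the wild types of 1 "wt" word, and without homozygous KO replicate 2 or wild type replicate 1 or 2, and that of Atp5b also without homozygous KO replicate 1. Atp5e, the small epsilon subunit, was at 58.5, 56.9 and 54.6 CPM in homozygous KO, 61.1, 69.2 and 69.6 CPM in heterozygous KO, and 58.5, 52.1, 59.7 and 67.9 CPM in wild type. The groups overlap, and it did not pass the test in homozygous KO (-0.07, SE 0.08, adjusted p from edgeR 0.575). The coupling factor Atp5s was at -0.09 (adjusted p from edgeR 0.779). Atp5e and Atp5s were named after their values were seen.

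The rotating c ring is built from 1 mature protein that 3 genes encode with different import sequences. Atp5g2 was at 86.3, 83.2 and 81.1 CPM in homozygous KO, 78.1, 82.1 and 79.5 CPM in heterozygous KO, and 66.8, 71.3, 68.2 and 73.8 CPM in wild type (0.25, SE 0.05, adjusted p from edgeR 0.00422). Atp5g3 was at 218, 204 and 197 CPM in homozygous KO, against 180, 178, 176 and 184 CPM (0.20, SE 0.06, adjusted p from edgeR 0.0253). Atp5g1 was at 57.3, 65.9 and 61.9 CPM against 53.8, 53.5, 55.3 and 57.1 CPM and missed the threshold (0.17, SE 0.07, adjusted p from edgeR 0.106). All 3 had no overlap between homozygous KO and wild type, as had 16.3% of all features upward. For Atp5g1, which shares 11.1% of its 50-base stretches with other genes, the closest values were 57.3 and 57.1 CPM. The call of Atp5g3 was lost under 11 alternatives, while that of Atp5g2, of whose 50-base stretches 38.4% occur in other genes, held under all 22.

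In heterozygous KO against wild type, 0 of 91 members were called by edgeR, as were 0.0154% of all features, and DESeq2 called 0 members as well. The median log2 fold change of members was 0.11, with 81 of 91 above 0, against a median of -0.01 over all features. At an unadjusted p under 0.05 in edgeR, 21 of the members were higher (23.1%, beside 3.08% of all features) and 0 lower (beside 4.2% of all features). At that threshold 53 of 84 tested cytosolic ribosomal proteins were higher and 0 lower, with a median of 0.17. The excess was thus not particular to the respiratory members. Of the mitochondrial ribosomal proteins 1 of 76 was higher, and of the citric acid cycle genes 0 of 13. Among the members, the smallest unadjusted p values were those of Atp5l (0.25, SE 0.06), Atp5g2 (0.19, SE 0.05), Atp5mpl (0.24, SE 0.07) and Ndufb6 (0.24, SE 0.08). In each of these every heterozygous KO value was above every wild-type value, with adjusted p from edgeR values of 0.568 to 0.608. In the summed level, complex V was 9.79% above wild type, complex III 9.06%, complex IV 8.28%, complex I 5.97% and complex II 4.49%. For every complex the lowest heterozygous KO library was within the wild-type range.

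This excess of members at an unadjusted p under 0.05 rested on particular libraries. The number was 6 without heterozygous KO replicate 2, 4 without replicate 3 and 41 without replicate 1. It was 12, 11 and 11 without wild type replicates 1, 2 and 3, 8 with Xist as a covariate and 3 with the wild types of 1 "wt" word. Within animals 44 to 51 the median difference of members was 0.0371 (1 library against 3), and within animals 56 to 63 it was 0.103 (2 against 1). Both knockouts were compared with the same 4 wild types, so their differences from wild type are not independent of each other.

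Between the knockouts, 7 members were higher in homozygous KO (7.63% of all features) and 1 was lower (9.5% of all features), out of 91. The share of members called higher was 7.69%, close to that of all features. Among the members called higher Cox6b2 differed most, by 1.25 on the log2 scale (SE 0.16, adjusted p from edgeR 0.000413). Atp5h and Cox6a1 differed by 0.31 (SE 0.06, adjusted p from edgeR 0.00318) and 0.30 (SE 0.06, adjusted p from edgeR 0.00371). The other 4 were Cox6c (0.19), Uqcrc1 (0.20), Ndufb10 (0.22) and Ndufa11 (0.24), with adjusted p from edgeR values of 0.0196, 0.0463, 0.0482 and 0.0466. These 4 calls were lost under 8, 13, 16 and 14 of 20 alternatives, whereas those of Cox6b2, Cox6a1 and Atp5h held under all 20. The member lower in homozygous KO was Cox6a2 (-1.92, SE 0.42, adjusted p from edgeR 0.00929), at the few counts given above. Of the 5 tested genes in a list of muscle markers (5 others had too few counts), 2 were called higher in the same comparison, Acta1 (1.30, adjusted p from edgeR 0.0300) and Tnni3 (0.99, adjusted p from edgeR 0.0482), and 0 lower, with Tnnt2 at -1.05 (adjusted p from edgeR 0.196). These 3 were named after their values were seen, and their part in the result for Cox6a2 was not tested.

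The median of members in this comparison was 0.09, against 0.00 over all features. It was 0.213 within animals 44 to 51, where 1 library faced 1, and 0.0279 within animals 56 to 63, where 2 faced 2. With library totals alone it was 0.0037, and 5 members were called.

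The 13 subunits encoded by mitochondrial DNA are read with the nuclear members because the complexes need both. Relative to wild type, 4 of the 13 were called higher in homozygous KO and 0 lower, with a median of 0.29, beside 12.5% of all features called higher. The 2 largest called were mt-Co2, a catalytic subunit of complex IV (0.44, SE 0.13, adjusted p from edgeR 0.0323), and mt-Nd1, of the complex I membrane arm (0.41, SE 0.11, adjusted p from edgeR 0.0189). The level of mt-Co2 was low, at 27.1 CPM in homozygous KO and 19.9 CPM in wild type. The highest, mt-Co1, averaged 5880 and 4790 CPM and was not called (0.30, SE 0.11, adjusted p from edgeR 0.0635). In homozygous KO, mt-Co3, mt-Atp6, mt-Nd3, mt-Nd4l and mt-Atp8 averaged at most 17.3 CPM. These further genes were named after their values were seen. The summed level of the 13, of which mt-Co1 was the largest part, was 12000, 13430 and 10040 CPM in homozygous KO. It was 9019, 8445 and 9024 CPM in heterozygous KO, and 10140, 10030, 9619 and 7959 CPM in wild type. Homozygous KO replicate 3 fell below wild type replicate 1, so the groups overlapped in this sum, unlike in the nuclear sum. In heterozygous KO the median was -0.10 and 0 of 13 were called by edgeR, as were 0 at an unadjusted p under 0.05. Their ratio to the nuclear members was 1.24 to 1.60 in homozygous KO, 1.04 to 1.22 in heterozygous KO and 1.05 to 1.43 in wild type, so that homozygous KO overlapped wild type and lay above heterozygous KO. With library totals alone 0 of the 13 were called.

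**Figure D5:**
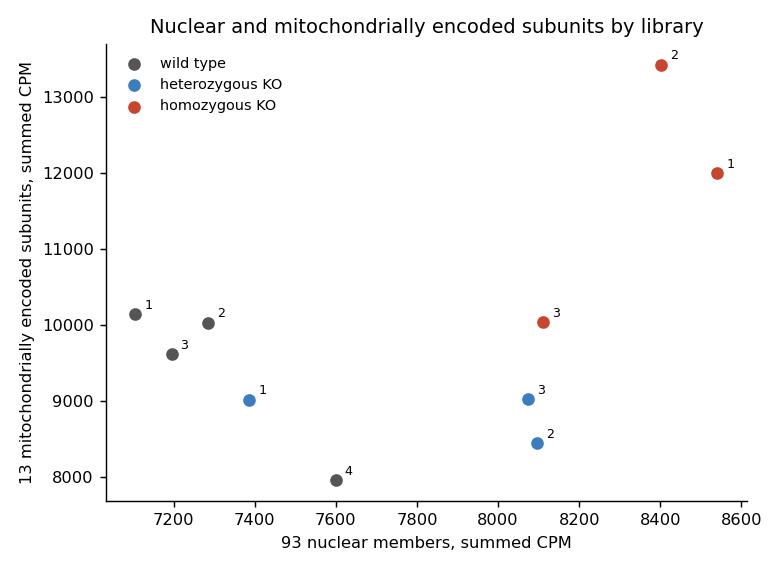
Summed CPM of the 13 mitochondrially encoded subunits (vertical axis) against that of the 93 nuclear members (horizontal axis), 1 point per library with its replicate number, neither axis starting at 0. Homozygous KO libraries are to the right of all wild types, while on the vertical axis replicate 3 is among them.

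Partners of the chain were counted from lists of related genes, beside 12.5% of all features called higher and 13.2% lower. Both cytochromes of the c type rose, Cycs by 0.24 (SE 0.06, adjusted p from edgeR 0.0137) and Cyc1, the heme subunit of complex III, by 0.18 (SE 0.05, adjusted p from edgeR 0.0305). Of 37 tested assembly factors outside the naming rule, 2 rose and 0 fell with a median of 0.00. They were Cox19, a copper-related factor of complex IV (0.36, SE 0.08, adjusted p from edgeR 0.00766), and Coa3 (0.21, SE 0.06, adjusted p from edgeR 0.0335). Of 16 tested regulators of respiratory genes, 4 rose and 1 fell. Nrf1 (0.26, SE 0.06, adjusted p from edgeR 0.00953) and Yy1 (0.24, SE 0.07, adjusted p from edgeR 0.0214), whose motifs were searched above, were the 2 largest rises, followed by Gabpb1 and Gabpa. The one that fell was Myc, at 87.1 CPM in homozygous KO against 136 CPM in wild type (-0.64, SE 0.17, adjusted p from edgeR 0.0150). With library totals alone 0 of the regulators were higher.

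Lists of other metabolic and ribosomal genes were counted in the same way. Of 13 citric acid cycle genes outside complex II, 5 rose and 0 fell with a median of 0.12, led by Mdh2 (0.26, adjusted p from edgeR 0.00256) and Idh3a (0.24, adjusted p from edgeR 0.0138). Of 16 glycolysis genes 4 rose and 0 fell with a median of 0.11, led by Pgk1 (0.25, adjusted p from edgeR 0.0146) and Ldha (0.22, adjusted p from edgeR 0.0440). Of 76 tested mitochondrial ribosomal proteins 13 rose and 1 fell, with a median of 0.11. Mrpl18 (0.37) and Mrpl20 (0.36) were the largest rises and Mrpl24 (-0.28) the fall, with adjusted p from edgeR values of 0.00273, 0.00186 and 0.0307. Of 84 tested cytosolic ribosomal proteins 20 rose and 0 fell with a median of 0.13, led by Rps27l (0.62, adjusted p from edgeR 0.000347) and Rps19 (0.46, adjusted p from edgeR 9.1e-05). The count of cytosolic ribosomal proteins called higher was 35 without wild type replicate 4 and 3 with the wild types of 1 "wt" word. With those wild types 4 mitochondrial ribosomal proteins were called higher, and with library totals alone 2 citric acid cycle genes and 0 glycolysis genes were. The calls of Ldha, Coa3, Cyc1 and mt-Co2 were lost under 17, 15, 12 and 9 of the 22 alternatives. The share called higher was 42.9% of the nuclear respiratory members, beside the 12.5% of all features. Calls higher outnumbered calls lower in each of these lists as well, so the direction was not particular to the respiratory members.

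Markers of cell state and of other cell types moved with the same comparison, in which 12.5% of all features were called higher and 13.2% lower. Proliferation markers (Mki67, Top2a, Ccnb1, Ccnb2, Cdk1, Aurkb and Birc5) were all called higher, 7 of 7, with a median of 0.51 and a summed level of 5470 to 7580 CPM in homozygous KO, 4640 to 5530 CPM in heterozygous KO and 3900 to 4940 CPM in wild type, and 3 of 7 were called with the wild types of 2 "wt" words. All 5 B-cell markers were lower, at 6.31 to 8.91 CPM in sum against 33.1 to 54.2 CPM in wild type, with Ms4a1 and Igkc near 0 in homozygous KO. Of 8 markers of double-positive thymocytes 1 was higher and 1 lower, with a median of 0.01, 4 above 0 and 4 below. Their sums were 7340 to 7490, 8860 to 9450 and 8910 to 10300 CPM. In wild type Rag1 was the largest part of that sum, so the sum does not stand for the 8 markers alike. Of 6 myeloid markers 2 were higher and 2 lower, with sums of 55.9 to 211, 46.4 to 63.3 and 57.1 to 67.9 CPM. Of 5 fibroblast markers 3 were higher (10.3 to 32.0 CPM against 4.22 to 12.9 CPM in wild type), and 0 with the animal-number ranges as a block. Of 5 epithelial markers 1 was higher, and of 4 endothelial markers 0 were called by edgeR, with 1 higher at an unadjusted p under 0.05 and 1 called by DESeq2. The 7 erythroid markers had sums of 230 to 2300, 200 to 601 and 355 to 1870 CPM, which overlap, and 0 were called by edgeR, with 2 higher at an unadjusted p under 0.05. In the muscle list 1 of 5 tested genes was higher, with Ckm, Myh8, Actc1, Myh6 and Myl7 too low to test. In the fat list the 1 gene tested was higher, with Ucp1, Cidea, Adipoq and Plin1 too low. The part of these cells and of cell division in the respiratory results was not tested.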

How the data were processed

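RNA from 10 thymuses was sequenced, and the authors deposited raw counts of reads per gene, 1 column per animal. The submitters' processing notes name CASAVA, STAR 2.4.1d and HTSeq 0.6.1p1 with the mouse build NCBIM37 (mm9). The annotation release, the strand setting and the handling of shared reads are not given in the sources used here. Overlapping genes and genes with near-identical copies therefore have uncertain counts. Among the members, 20 shared over 10% of their 50-base stretches with other genes, and 9 of these were called in homozygous KO against wild type. Symbols, biotypes and lengths came from GENCODE M21, which matched 30221 of the 34467 Ensembl identifiers. Features without one stayed in the library totals. No coordinates of the count table were used.

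The quasi-likelihood F test of edgeR 4.0.16 under R 4.3.3 was fitted once to all 10 libraries after filterByExpr and TMM scaling, with Benjamini-Hochberg adjustment over the 19511 features tested, of which 91 were members. The standard error was the absolute log2 fold change divided by the square root of F. CPM used TMM-scaled totals, and RPKM used the shortest APPRIS principal transcript. Differences within animal-number ranges used log2(CPM + 0.1). Floors of 3 counts reflect counting error alone, because PCR copies cannot be recognised without molecular identifiers. The script was tested on simulated data. DESeq2 1.42.0 was an alternative.

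Groups came from the titles. All 12 pairs of libraries within a group differed by more than sampling noise and were kept as replicates. The members and lists were chosen with earlier results of these data known. The genes named were landmark subunits of each complex, the up to 3 largest changes each way among called members of each complex, tissue-restricted isoforms, untested members and the up to 2 largest called changes each way in each pathway list. Genes outside this rule are marked as named after their values were seen, as are Sdhc, Sdhd, Gabpa, Gabpb1 and the markers.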

Additional observations from a re-analysis of the deposited data

Results flagged for a closer look

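In the 4 wild types, 1 library lay far from the other 3 in 5 of the 53 quantities looked at (9.43%), by Dixon's ratio of gap to range, which chance exceeds in about 1 in 20 groups. Wild type replicate 4 was high for Atp5l at 50.02 CPM (others 44.57 to 44.84), Atp5mpl at 54.91 CPM (others 49.69 to 50.16), Ndufb2 at 11.25 CPM (others 8.30 to 8.73) and the complex V sum at 2977 RPKM (others 2770 to 2792). These items are not independent, since Atp5l and Atp5mpl are part of that sum. Wild type replicate 2 was high for the complex II sum at 249.4 RPKM (others 238.0 to 239.8).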

How the results depend on the processing

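The 22 alternatives were other scalings, tests and filters, added terms, other sets of wild types and the loss of each library in turn. In homozygous KO against wild type the count of members called (39) was 14 with library totals alone, 11 with the wild types of 1 "wt" word, and 22 to 43 on leaving out 1 library. The median of members was 0.1046 with library totals alone. In heterozygous KO against wild type 0 members were called under all 22. Between the knockouts the count (8) was 5 with library totals alone, 4 with no filter, 4 with a minimum average log2 CPM of 2, 5 with the Xist covariate, 4 with the 2 groups alone, and 4 to 12 on leaving out 1 library, while the median with library totals alone was 0.003701. The sign reversed for Ndufs1 (-0.02857), Sdha (-0.01587) and Sdhb (-0.02316) with library totals alone, for Ndufs5 without homozygous KO replicate 1 (-0.1382 to 0.3684 on leaving out 1 homozygous KO library), and for Atp5e (0.03493) with the wild types of 2 "wt" words. Atp5s reversed with those wild types (0.09705) and without homozygous KO replicate 2 (0.02529), replicate 3 (0.004642) or wild type replicate 3 (0.03605), with -0.2949 without homozygous KO replicate 1. The cause was not tested. Same-numbered libraries did not pair: their correlations of deviations ran from -0.104 to 0.225, so the numbers are only names. With the replicate block, 35 members were called in homozygous KO, 0 in heterozygous KO and 7 between the knockouts. Depth limits the isoforms under 0.53 CPM, for which 3 counts are 0.0260 to 0.0737 CPM.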
